A study of Mus musculus with 14 samples.

Results

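The regions described here are the accessible stretches around Fos, Fosb and Junb, genes that neurons switch on quickly when they are active. They were chosen by position alone, as every region of the deposited accessibility table that overlaps a fixed window around each gene on the mm9 build of the mouse genome. The windows were chr12:86770000-86870000 for Fos and its enhancers, chr7:19865000-19920000 for Fosb and chr8:87475000-87530000 for Junb. They held 23 of the table's 191271 regions, 7 at Fos, 8 at Fosb and 8 at Junb. The regions covered 6243 bases at Fos, 4026 at Fosb and 7337 at Junb.

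Accessibility had been measured by ATAC-seq, where an enzyme inserts sequencing adapters into open chromatin, in sorted neuronal nuclei of mouse hippocampus. The libraries form 4 groups by their titles, Reactivated (n = 3), Late (n = 4), Early (n = 3) and Basal (n = 4). All groups share the strain ArcCreERT2 x R26R-STOP-floxed, which carries yellow fluorescent protein (eYFP), with genotype +/+. In it, tamoxifen-dependent Cre made under Arc, an activity-induced gene, switches on a fluorescent reporter. All mice received 4-hydroxytamoxifen before contextual fear conditioning, and all labels give a foot shock on day 0. Reactivated mice had recall on day 5, and the labels place the collection of replicate 1 on day 5, of replicate 2 on day 6 and of replicate 3 on day 7. Late mice were collected on day 5 without recall. Early and Basal carry the same treatment label, with collection on day 0 and no recall. Nuclei were stained for NeuN, Arc and GFP before sorting, but the labels do not say which stained fraction each group holds, nor what sets Basal apart. Hippocampi of several mice were pooled per library and no age is labelled. In such pooled nuclei, fewer cells with an open region and less opening per cell cannot be told apart. The table names no genes, so the neuronal label could not be set against marker genes.

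Fos, Fosb and Junb encode subunits of AP-1, a transcription factor made of a Fos-family and a Jun-family protein joined by leucine zippers. c-Fos and JunB appear and vanish rapidly after neuronal activity, while a shortened splice form of FosB is stable and builds up with repeated stimulation. Calcium entry starts Fos transcription through factors such as CREB and SRF at the promoter, together with several enhancers on both sides of the gene. In hippocampus, c-Fos is widely used to mark neurons that were active during learning or recall.

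The promoters are shown because CREB-type sites near the start are textbook features of such activity-induced genes. Each line gives the 250 bases before the annotated start, 5′ to 3′, from RefSeq on GRCm38.p6, a different build from that of the accessibility table. They lie at chr12:85473640-85473889 on the plus strand for Fos, and on the minus strand at chr7:19310046-19310295 for Fosb and chr8:84978749-84978998 for Junb. Capitals mark matches to TGACG (the core of a CREB site) or to other motifs searched for on both strands. The others were the TATA box (TATAAA), the AP-1 site (TGANTCA), the box spelled CCAAT and the CArG box bound by SRF.
Fos promoter: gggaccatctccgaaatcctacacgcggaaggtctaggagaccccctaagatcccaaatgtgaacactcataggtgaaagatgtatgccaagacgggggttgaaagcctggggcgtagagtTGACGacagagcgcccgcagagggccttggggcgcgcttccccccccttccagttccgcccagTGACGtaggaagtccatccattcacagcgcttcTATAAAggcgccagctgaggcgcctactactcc
Fosb promoter: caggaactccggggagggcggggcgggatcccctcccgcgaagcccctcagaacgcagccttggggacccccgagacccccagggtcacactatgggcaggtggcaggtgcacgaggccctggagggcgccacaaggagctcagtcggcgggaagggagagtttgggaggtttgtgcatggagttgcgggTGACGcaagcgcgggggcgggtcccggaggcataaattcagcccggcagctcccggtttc
Junb promoter: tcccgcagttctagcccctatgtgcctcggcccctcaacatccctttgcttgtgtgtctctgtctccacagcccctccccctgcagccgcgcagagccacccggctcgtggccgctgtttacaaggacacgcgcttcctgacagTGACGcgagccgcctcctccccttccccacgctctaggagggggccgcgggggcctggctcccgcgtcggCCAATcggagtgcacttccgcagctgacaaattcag
TGACG began 129 and 66 bases before the start of Fos, 60 bases before that of Fosb and 106 bases before that of Junb, and 17.8% of the 32851 promoters in the table hold it. TATAAA began 33 bases before the start of Fos, with 12.4% of promoters holding it, and CCAAT began 36 bases before that of Junb (33.8%). TGANTCA (6.75% of promoters) and the CArG box (1.47%) were not in these stretches of 250 bases, and sequence further upstream was not searched. An annotation of mm9 was not used here, so which region covers each promoter is not stated.

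Numbered from the lowest coordinate, Fos regions 1 to 7 lay at chr12:86776919-86777720, chr12:86795827-86796935, chr12:86808492-86809455, chr12:86814454-86816033, chr12:86826522-86827375, chr12:86828496-86829206 and chr12:86860588-86860817. Fosb regions 1 to 8 lay at chr7:19867864-19868170, chr7:19881249-19881425, chr7:19886114-19886778, chr7:19893529-19894210, chr7:19895434-19895988, chr7:19904934-19905648, chr7:19912372-19912809 and chr7:19918066-19918560. Junb regions 1 to 8 lay at chr8:87489576-87490267, chr8:87493225-87493998, chr8:87499977-87500711, chr8:87501278-87502904, chr8:87503531-87504081, chr8:87509194-87510432, chr8:87513839-87515011 and chr8:87521769-87522322. The widest were Fos region 4 (1579 bases), Fosb region 6 (714 bases) and Junb region 4 (1626 bases), and the median width was 710 bases, against 520 bases over the whole table.

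Reads recovered from the RPKM values (region reads divided by region length and library size) totalled 46134253 to 56251676 per library, of which 7145415 to 15075081 fell in regions. Single regions of the 3 loci held 4 to 737 reads per library. The share of reads inside regions was 21.3% to 24.0% in Reactivated, 18.4% to 20.02% in Late and 13.2% to 19.3% in Basal. In Early it was 13.8%, 27.8% and 18.1% in replicates 1, 2 and 3, so the Early libraries stood apart from one another, and results that rest on replicate 2 are also given without it. Tests were made with limma on log2(RPKM + 0.5) over 172143 regions, with Benjamini-Hochberg adjustment over all of them. A region is called at an adjusted p under 0.05. Of the 23 regions 22 were tested, because Fosb region 3 fell below the filter on low values.

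Levels differed between the loci. The highest region was Fos region 2, with a mean over all 14 libraries of 5.06 RPKM, higher than 99.3% of all regions. Junb region 5 (3.31 RPKM) was the highest at Junb and Fosb region 2 (2.13 RPKM) at Fosb. Region means ran from 1.71 to 5.06 RPKM at Fos, from 1.73 to 3.31 RPKM at Junb and from 0.732 to 2.13 RPKM at Fosb. Early had the lowest group mean at 19 of the 23 regions, namely all 8 Fosb regions, all 8 Junb regions and 3 of the 7 Fos regions. Early had the lowest mean at 15.4% of all tested regions. Reactivated had the highest group mean at 19 of the 23, against 42.3% of all tested regions.

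**Figure D1:**
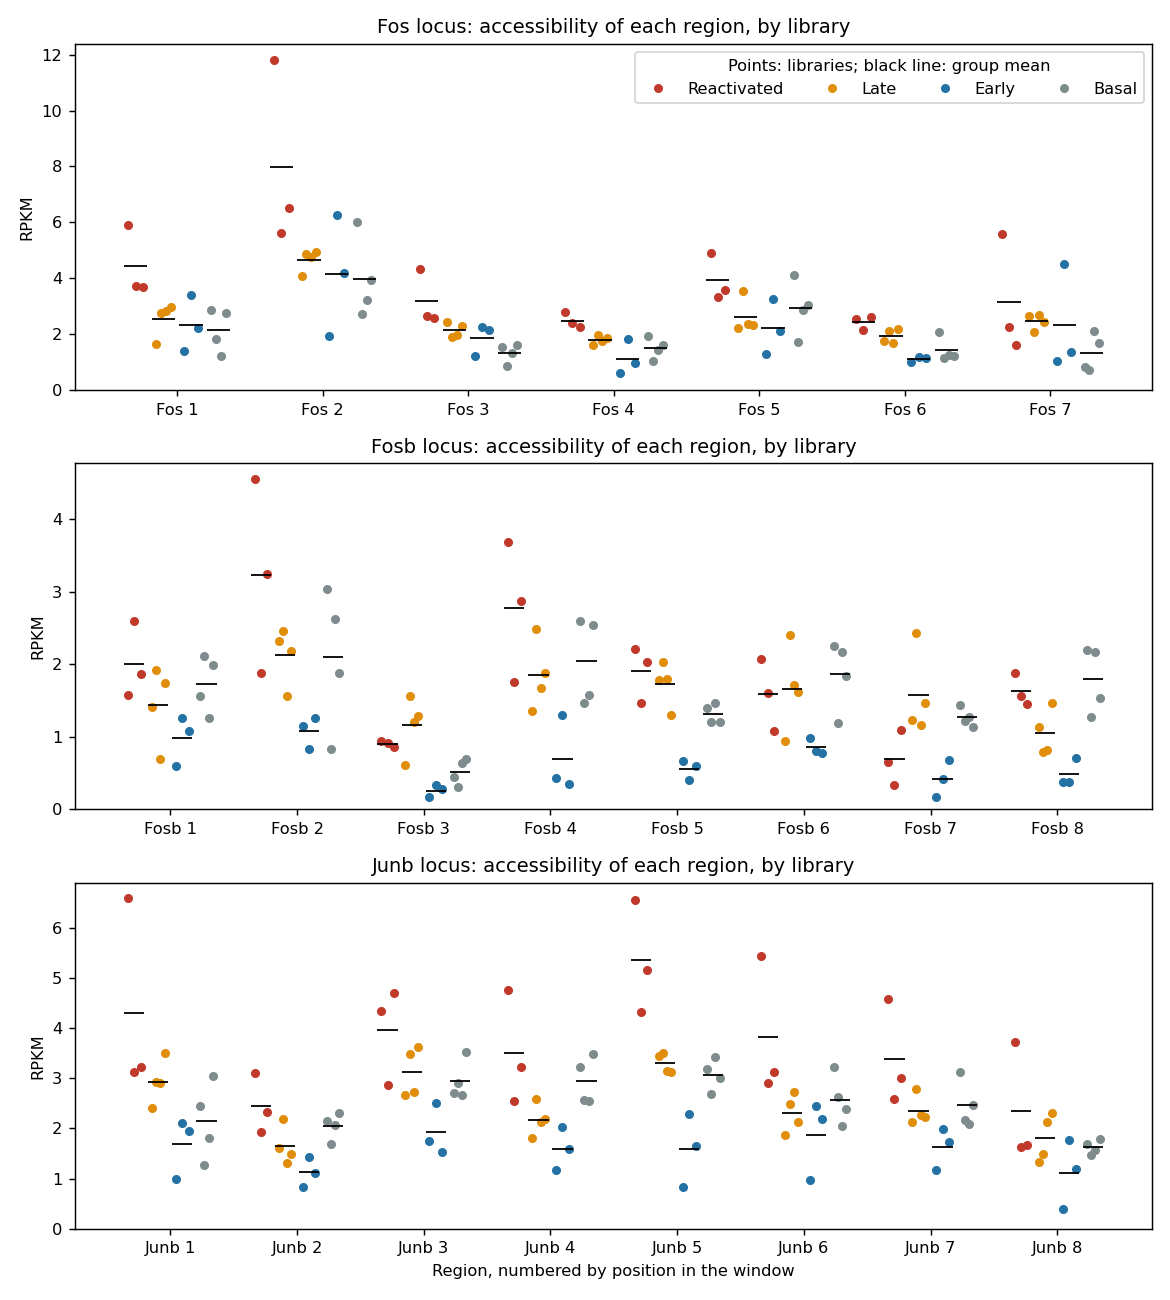
RPKM (vertical axis) of every library at each region of the Fos, Fosb and Junb loci, with Reactivated, Late, Early and Basal from left to right within a region and a black line at each group mean. Early points lie lowest at Fosb regions 4, 5, 7 and 8 apart from overlap with Reactivated at region 7, and Reactivated replicate 1 reaches 11.8 RPKM at Fos region 2.

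The comparison of Early with Basal sets side by side 2 groups labelled with collection on the conditioning day. Accessibility was lower in Early at most of the Fosb locus and at 1 Junb region, and at no Fos region was it called different. Of the 7 Fosb regions tested 5 fell (regions 4 to 8), and of the 8 Junb regions 1 fell (region 5). Among all tested regions 1.44% were called lower and 10.9% higher in Early. The largest difference was at Fosb region 8, chr7:19918066-19918560. It had 0.373, 0.373 and 0.709 RPKM in Early, against 2.20, 1.27, 2.16 and 1.53 RPKM in Basal. All 3 Early libraries thus lay below all 4 Basal libraries, on 10 to 19 reads in Early and 34 to 59 in Basal. Its log2 fold change was -1.21 ± 0.23 (SE, limma, adjusted p = 0.00645). Within each library's own ranking, this region stood above 9.50% of all regions on average in Early and above 80.4% in Basal.

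Fosb region 4 had 0.433, 1.30 and 0.352 RPKM in Early, against 2.60, 1.46, 1.57 and 2.54 RPKM in Basal (log2 fold change -1.14 ± 0.29 SE, limma, adjusted p = 0.0167). Here Early replicate 2 came close to the lowest Basal libraries without reaching them. At Fosb region 5, chr7:19895434-19895988, the values were 0.665, 0.399 and 0.599 RPKM in Early, against 1.40, 1.20, 1.46 and 1.20 RPKM in Basal (log2 fold change -0.79 ± 0.21 SE, limma, adjusted p = 0.0227). The groups were about as far apart at Fosb region 7, which had 0.169, 0.422 and 0.675 RPKM in Early and 1.43, 1.22, 1.27 and 1.14 RPKM in Basal (log2 fold change -0.97 ± 0.25 SE, limma, adjusted p = 0.0179). That region rests on 4 to 16 reads per Early library. Fosb region 6, the widest of the locus, fell by 0.78 on the log2 scale (SE 0.26, limma, adjusted p = 0.0490), a call that was lost in 10 of 18 alternative settings. Fosb regions 1 and 2, at the low-coordinate end of the window, had log2 fold changes of -0.60 and -0.63 that were not called. In the untested region 3, the 3 Early libraries held 0.167 to 0.333 RPKM and the 4 Basal libraries 0.305 to 0.694 RPKM.

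The chromosome around Fosb moved in the same direction. On chromosome 7, 14.2% of 3424 tested regions were called lower and 1.46% higher in Early, with a median log2 fold change of -0.25, whereas the Fosb median was -0.79. The part of this shift over the chromosome's tested regions in the Fosb values was not tested. Chromosomes 8 and 12, which carry Junb and Fos, held 9483 and 8653 tested regions, more than chromosome 7. Which stretches of chromosome 7 its tested regions cover was not examined. On chromosomes 8 and 12, 1.28% and 1.25% of regions were called lower, and the medians were 0.25 and 0.22.

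At Junb all 8 log2 fold changes of Early against Basal were below 0, from -0.84 to -0.28, with a median of -0.50. The median over all tested regions was 0.23. Junb region 5, chr8:87503531-87504081, had 0.838, 2.28 and 1.64 RPKM in Early, against 3.18, 2.68, 3.42 and 3.02 RPKM in Basal (log2 fold change -0.84 ± 0.26 SE, limma, adjusted p = 0.0404). The groups did not overlap there, although Early replicate 2 lay nearer to Basal than to Early replicate 1. This call was lost in 8 of 18 alternative settings, with adjusted p from 0.0554 to 0.129 (limma). Among them were leaving out any one of the 4 Basal libraries, Early replicate 1 or Early replicate 3, and the fit of these 2 groups alone. The log2 fold change ran from -1.13 to -0.55 over all 18. The widest region, Junb region 4, had 1.18, 2.03 and 1.59 RPKM in Early and 3.22, 2.56, 2.54 and 3.48 RPKM in Basal, a log2 fold change of -0.73 ± 0.25 that just missed the threshold (limma, adjusted p = 0.0584). Counting both loci, Early lay wholly below Basal at 10 tested regions, 5 at Fosb and 5 at Junb, and over the table this held for 3.71% of regions.

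Fos itself gave no call between Early and Basal in the fit as reported. Of its 7 regions 0 were called by limma and 0 had an unadjusted p under 0.05. A fit of these 2 groups alone also called 0. Median-of-ratios scaling called 2 Fos regions lower, quantile normalization 1 and the in-region read share in the model 1. Over the table these settings called 6.85%, 5.82% and 2.89% of regions lower. In the fit as reported the Fos log2 fold changes ran from -0.36 to 0.49. Their median was -0.016, where that of all tested regions was 0.23. The most extreme was region 7, chr12:86860588-86860817, with 1.05, 4.51 and 1.37 RPKM in Early and 0.805, 0.724, 2.09 and 1.69 RPKM in Basal (0.49 ± 0.37 SE, limma, adjusted p = 0.396). The log2 fold change without Early replicate 2 was -0.030. Fos region 4, the widest, had 0.607, 1.82 and 0.945 RPKM in Early and 1.91, 1.05, 1.44 and 1.60 RPKM in Basal (-0.35 ± 0.25 SE, limma, adjusted p = 0.359), with overlapping groups.

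The count of calls in Early depended on scaling and on single libraries, while the direction at Fosb and Junb did not turn in the settings run. Bringing libraries to a common scale by median-of-ratios gave 15 lower regions of the 22 (6 at Fosb, 7 at Junb and 2 at Fos) and 0 higher. Over the table that scaling called 6.85% of regions lower and 8.18% higher, and it moves the table's median log2 fold change for Early against Basal to -0.0024. Without Early replicate 2 the lower calls were 3, namely 2 at Fosb and 1 at Junb, with 0.265% of the table called lower. Without Early replicate 3, and likewise without Basal replicate 3, they were also 3. Fosb region 8 was called in all 18 alternative settings, with log2 fold changes from -1.87 to -0.90.

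**Figure D2:**
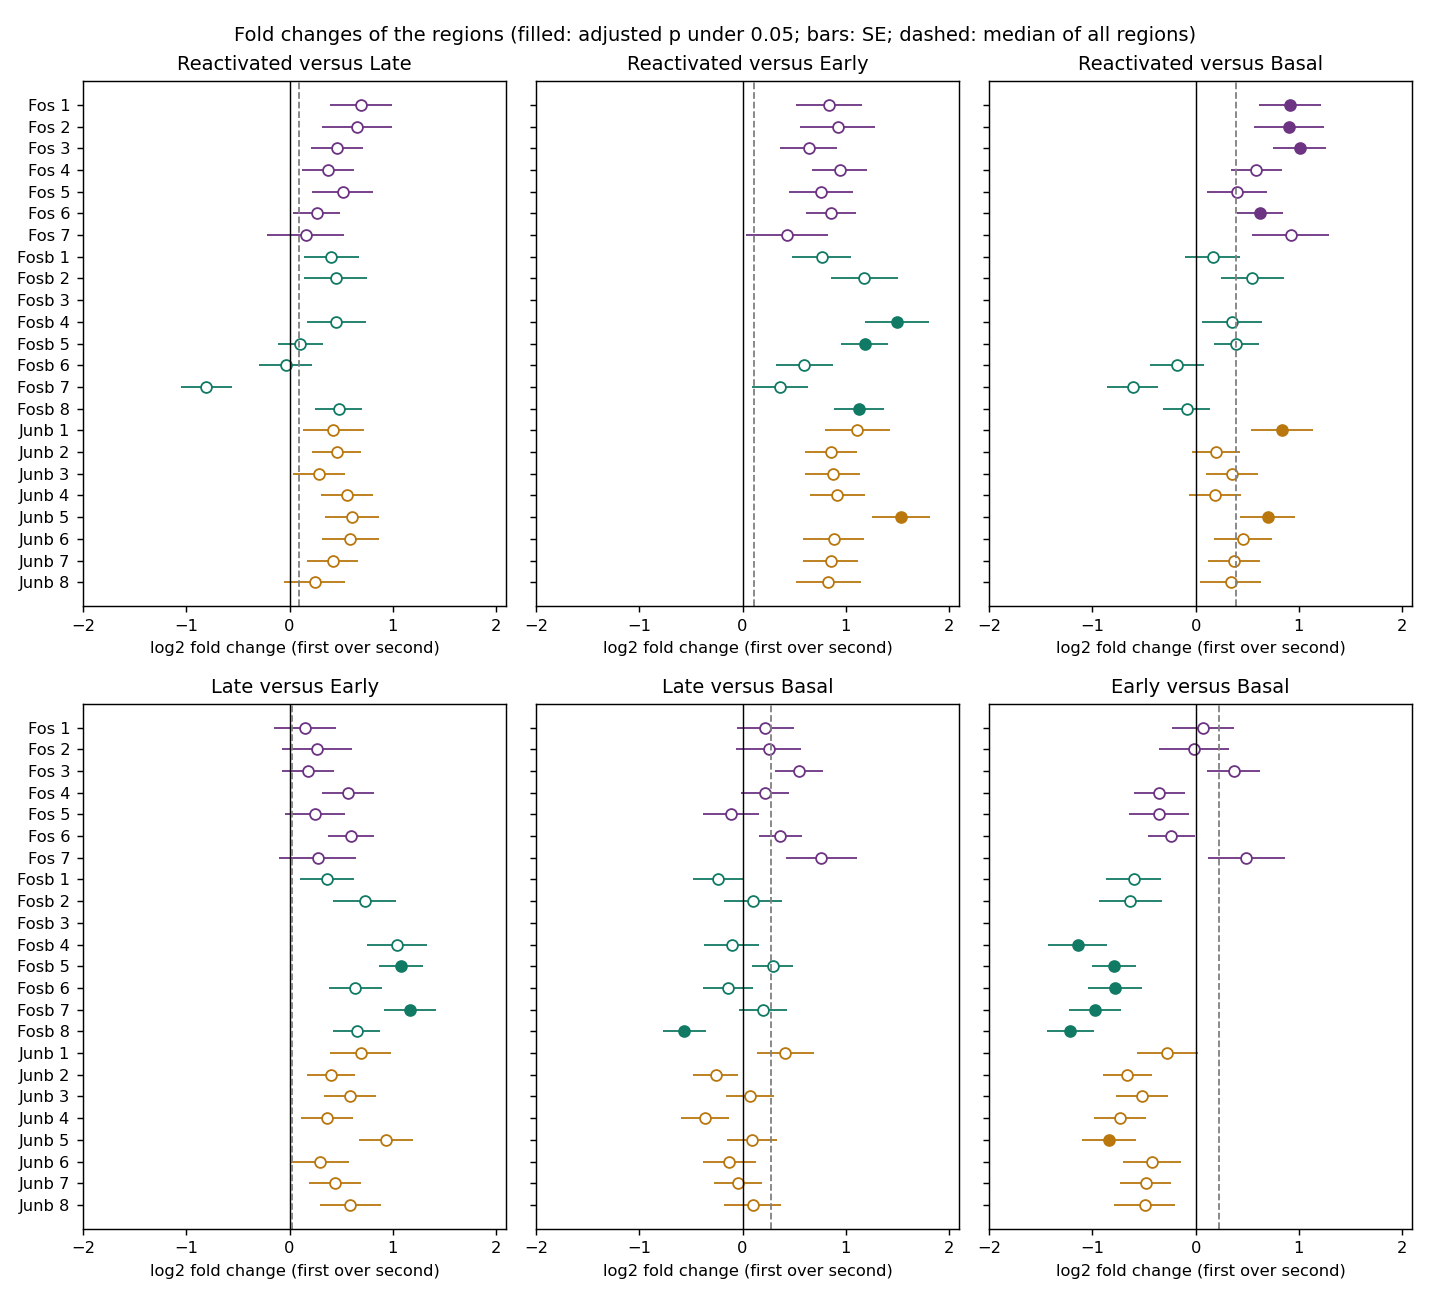
Log2 fold change of each region (horizontal axis, bars 1 SE) in the 6 comparisons between groups, first group over second, with filled points at adjusted p under 0.05 and a dashed line at the median of all tested regions. In Early versus Basal 5 Fosb regions and 1 Junb region are filled left of 0, and in Reactivated versus Early all 22 tested regions lie right of 0.

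Set against Early, the Reactivated estimates lay above 0 throughout the 3 loci. All 22 tested regions had log2 fold changes above 0, from 0.36 to 1.53, with a median of 0.86, where the median of all tested regions was 0.11. Of the 22 regions 4 were called higher (Fosb regions 4, 5 and 8 and Junb region 5) and 0 lower, where 0.944% of all tested regions were called higher and 0.417% lower. The 3 Reactivated libraries lay wholly above the 3 Early libraries at 18 of the 22, against 10.6% over the table. Junb region 5 had 6.56, 4.32 and 5.16 RPKM in Reactivated and the Early values given above, a log2 fold change of 1.53 ± 0.28 (SE, limma, adjusted p = 0.0225). Fosb region 4, chr7:19893529-19894210, had 3.68, 1.76 and 2.87 RPKM in Reactivated, against 0.433, 1.30 and 0.352 RPKM in Early (1.49 ± 0.31 SE, limma, adjusted p = 0.0288). Fosb regions 5 and 8 rose by 1.18 and 1.13 on the log2 scale (limma, adjusted p = 0.0265 and 0.0314).

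None of the Fos regions was called in Reactivated against Early by limma, though 6 of the 7 had an unadjusted p under 0.05. Fos region 4 had 2.80, 2.38 and 2.25 RPKM in Reactivated, all above the 0.607, 1.82 and 0.945 RPKM of Early (log2 fold change 0.94 ± 0.27 SE, limma, adjusted p = 0.0671). These adjusted p-values rest heavily on which Early libraries are used. Without Early replicate 2, 18 of the 22 regions were called higher (5 at Fos, 5 at Fosb and 8 at Junb), along with 14.5% of all tested regions. Leaving out Early replicate 1, Early replicate 3, Reactivated replicate 1 or Reactivated replicate 3, none of the 22 was called, with 13 to 20 of them at an unadjusted p under 0.05. Calls were few over the whole table in these fits, at most 0.0343% higher and 0.0656% lower. Of all 172143 tested regions, 23595 to 27855 had an unadjusted p under 0.05 there. Chromosome 7 had a median log2 fold change of 0.52 in this comparison and 8.59% of its regions called higher, against a median of 1.13 at Fosb.

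The Late estimates likewise lay above 0 against Early at all 22 tested regions, in a comparison that shares the Early libraries with both just described. Of the 22 regions 2 were called higher and 0 lower, with 0.31% of all tested regions called higher and 0.103% lower. Both are Fosb regions on chromosome 7, where 4.41% of regions were called higher and 0 lower. The median log2 fold change was 0.73 at Fosb, 0.31 over the tested regions of chromosome 7 and 0.02 over all tested regions. The part of that chromosome 7 shift in the Fosb values was not tested here either. At Junb all 8 log2 fold changes were above 0 with a median of 0.51, and at Fos all 7 with a median of 0.27. The medians of chromosomes 8 and 12 were 0.03 and 0.05. Without Early replicate 1, 7 of the 8 at Junb and 2 of the 7 at Fos were above 0. Fosb region 5 had 1.79, 2.03, 1.79 and 1.31 RPKM in Late, against 0.665, 0.399 and 0.599 RPKM in Early (log2 fold change 1.08 ± 0.21 SE, limma, adjusted p = 0.0222). Fosb region 7, chr7:19912372-19912809, had 1.23, 2.43, 1.16 and 1.46 RPKM in Late, against 0.169, 0.422 and 0.675 RPKM in Early (1.17 ± 0.25 SE, limma, adjusted p = 0.0362). Groups without overlap, Late above Early, were seen at 10 of the 22 regions, 5 at Fosb, 4 at Junb and 1 at Fos (5.21% of the table). Leaving out Early replicate 2 gave 5 calls, with 5.00% of the table called higher. Without Early replicate 1 or without Late replicate 4 there was 1, with 0.104% and 0.114% of the table called higher. Without Early replicate 3 or any one of Late replicates 1, 2 and 3 there were 0, with 0.0866% to 0.214% of the table called higher.

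**Figure D3:**
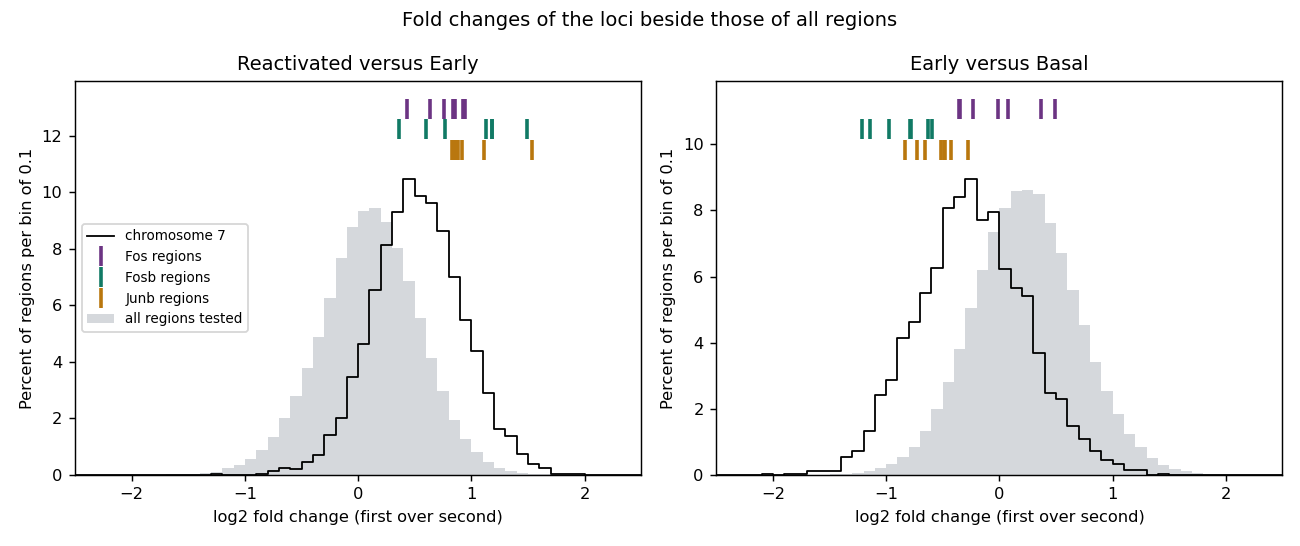
Distribution of log2 fold changes over all tested regions (grey bars, percent per bin of 0.1) and over chromosome 7 (black line), with each Fos, Fosb and Junb region marked above, for Reactivated versus Early on the left and Early versus Basal on the right. In Early versus Basal the Fosb and Junb marks lie left of the median of all regions, 0.23, and the chromosome 7 curve is shifted the same way, to a median of -0.25.

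Against Basal, Reactivated stood higher mainly at Fos. Of the 7 Fos regions 4 rose (regions 1, 2, 3 and 6), of the 8 Junb regions 2 rose (regions 1 and 5), and no tested Fosb region was called (limma, with 1 of 7 at an unadjusted p under 0.05). Among all tested regions 24.3% were called higher and 4.78% lower, so 6 of 22 is close to the table's share. The Fos median log2 fold change of 0.91 compares with 0.39 over all tested regions, 0.36 at Junb and 0.17 at Fosb. Fos region 3, chr12:86808492-86809455, had 4.34, 2.66 and 2.58 RPKM in Reactivated, against 1.53, 0.842, 1.32 and 1.61 RPKM in Basal, with no overlap (log2 fold change 1.01 ± 0.25 SE, limma, adjusted p = 0.00920). Late held 2.44, 1.89, 1.95 and 2.28 RPKM at that region and Early 1.22, 2.24 and 2.14 RPKM, so 2 of the 3 Early libraries lay above all 4 Basal libraries.

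Fos region 2, chr12:86795827-86796935, the most accessible of the 3 loci, had 11.8, 5.62 and 6.50 RPKM in Reactivated, against 6.02, 2.73, 3.23 and 3.92 RPKM in Basal (log2 fold change 0.91 ± 0.34 SE, limma, adjusted p = 0.0475). Reactivated replicate 1 was well above the other Reactivated libraries there, and Basal replicate 1 reached into the Reactivated range. At Fos region 1, chr12:86776919-86777720, the values were 5.90, 3.73 and 3.68 RPKM in Reactivated and 2.88, 1.82, 1.22 and 2.74 RPKM in Basal (0.91 ± 0.30 SE, limma, adjusted p = 0.0288). Fos region 6, chr12:86828496-86829206, rose by 0.62, Junb region 1 by 0.84 and Junb region 5 by 0.70 on the log2 scale (limma, adjusted p = 0.0411, 0.0388 and 0.0490). Of these 6 calls that of Fos region 3 was lost in 1 of 18 alternative settings, and the others in 7 to 12 of 18. Groups did not overlap, Reactivated above Basal, at 7 of the 22 regions, against 34.9% of the table. After median-of-ratios scaling 1 region was called higher and 1 lower, with 8.92% of the table higher and 10.7% lower, the Fos median was 0.45 and that of all regions 0.035. Under it 3 of the 8 Junb log2 fold changes were above 0, where all 8 were above 0 on the deposited scale. A single region was called without Basal replicate 2, without Basal replicate 3 or without Reactivated replicate 1. There were 2 without Reactivated replicate 3 (1 higher and 1 lower) and 3 without Basal replicate 4. In these fits 9.23% to 18.8% of the table was called higher and 1.85% to 3.92% lower. With each library's in-region read share in the model 0 regions were called, both of the 22 and of the whole table (limma, 3 of the 22 at an unadjusted p under 0.05). That share was 21.3% to 24.0% in Reactivated and 13.2% to 19.3% in Basal, without overlap. The fit therefore separates share from group poorly, and no conclusion is drawn from it.

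At Fosb, single regions pointed both ways. Fosb region 7 had 0.651, 0.337 and 1.10 RPKM in Reactivated, all below the 1.43, 1.22, 1.27 and 1.14 RPKM of Basal, a log2 fold change of -0.61 ± 0.25 that was not called (limma, adjusted p = 0.0667). At the Fosb region of the highest level, chr7:19881249-19881425, the values were 4.55, 1.88 and 3.25 RPKM in Reactivated and 3.04, 0.838, 2.62 and 1.88 RPKM in Basal (0.55 ± 0.31 SE, limma, adjusted p = 0.162), on 8 to 45 reads per library. Fosb region 6, chr7:19904934-19905648, had 2.07, 1.60 and 1.08 RPKM in Reactivated and 2.25, 1.19, 2.17 and 1.83 RPKM in Basal. Whether the Fos and Fosb differences themselves differ was not tested.

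Reactivated, with recall, was also set against Late, without it. The Late libraries are labelled with collection on day 5, and Reactivated replicates 1, 2 and 3 with days 5, 6 and 7. Recall and collection day are therefore not separated in this comparison. None of the 22 regions was called by limma, 6 had an unadjusted p under 0.05, and voom on the recovered reads also called 0. Among all tested regions 0.0256% were called higher and 0.205% lower. Of the 22 log2 fold changes 20 were above 0, with a median of 0.44, where the median of all tested regions was 0.09. Without Reactivated replicate 1 the median of the 22 was 0.25, with 18 above 0. It was 0.20 after quantile normalization (17 above 0) and 0.21 with the in-region read share in the model (18 above 0), where the medians of all tested regions were 0.017 and -0.082. At Fos all 7 were above 0 (0.16 to 0.69), and at Junb all 8 (0.24 to 0.60). After quantile normalization 5 of the 7 and 7 of the 8 were above 0. Reactivated lay wholly above Late at 6 of the 22, 4 at Fos and 2 at Junb, against 13.5% of the table. The largest Fos difference was at region 1, with 5.90, 3.73 and 3.68 RPKM in Reactivated and 1.64, 2.76, 2.82 and 2.98 RPKM in Late (0.69 ± 0.30 SE, limma, adjusted p = 0.391, 95% interval 0.07 to 1.31). Junb region 5 had the largest at its locus, with 6.56, 4.32 and 5.16 RPKM in Reactivated and 3.45, 3.51, 3.15 and 3.13 RPKM in Late (0.60 ± 0.26 SE, limma, adjusted p = 0.393). Fosb region 7 went the other way, with 0.651, 0.337 and 1.10 RPKM in Reactivated and 1.23, 2.43, 1.16 and 1.46 RPKM in Late (-0.80 ± 0.25 SE, limma, adjusted p = 0.258).

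Between Late and Basal a single region of the 22 was called, and it was lower in Late, while 23.9% of all tested regions were called higher and 6.03% lower. This was Fosb region 8, with 1.13, 0.790, 0.812 and 1.46 RPKM in Late against 2.20, 1.27, 2.16 and 1.53 RPKM in Basal (log2 fold change -0.56 ± 0.21 SE, limma, adjusted p = 0.0480). The groups overlapped, and the call was lost in 12 of 20 alternative settings, among them leaving out Basal replicate 1, 3 or 4 or Late replicate 1, 2 or 3. The median log2 fold change of the 22 was 0.10, where that of all tested regions was 0.28. Median-of-ratios scaling moved these to -0.24 and -0.0030, with 18 of the 22 below 0 and 3 called lower. Over the table that scaling called 16.4% of regions lower and 14.6% higher. The largest at Fos was region 7, with 2.63, 2.08, 2.67 and 2.42 RPKM in Late and 0.805, 0.724, 2.09 and 1.69 RPKM in Basal (0.76 ± 0.35 SE, limma, adjusted p = 0.0957). The largest at Junb was region 1, chr8:87489576-87490267, at 0.41 ± 0.27 (limma, adjusted p = 0.255). Fosb region 3, chr7:19886114-19886778, which the filter had left out, had 0.616, 1.57, 1.21 and 1.28 RPKM in Late and 0.444, 0.305, 0.638 and 0.694 RPKM in Basal. With no filter it was called higher in Late than in Basal (0.69 ± 0.21 SE, limma, adjusted p = 0.0197) and than in Early (1.11 ± 0.23 SE, limma, adjusted p = 0.0264).

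Within groups, single libraries led at many of these regions together, in Early and Basal at shares close to those of the whole table. Reactivated replicate 1, the one labelled with collection on day 5, the day of recall, was the highest of the 3 Reactivated libraries at 19 of the 23 regions (6 at Fos, 6 at Fosb and 7 at Junb), against 42.8% of all tested regions. Replicates 2 and 3, labelled with days 6 and 7, were highest at 1 and 3 regions. There is 1 library per collection day, so day and library cannot be told apart. Early replicate 2 was the highest Early library at 18 of the 23 regions, against 74.3% of all tested regions. It was highest at all 7 Fos and all 8 Junb regions but at 3 of the 8 Fosb regions. Basal replicate 1 was the highest Basal library at 12 of the 23 (48.2% of all tested regions).

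Counting each locus as a share of all reads in regions takes out the differences between libraries in that total. The Fosb regions together held 3.46, 2.73 and 2.84 of every 100000 reads in regions in Reactivated, 2.67, 4.23, 2.77 and 3.27 in Late, 1.53, 1.01 and 1.38 in Early and 3.71, 3.28, 4.80 and 3.94 in Basal. The 3 Early libraries were below the libraries of each other group. The same held at Junb, with 14.8, 9.30 and 10.0 per 100000 in Reactivated, 8.26, 10.3, 8.71 and 9.41 in Late, 5.63, 5.51 and 6.74 in Early and 10.8, 11.7, 12.7 and 12.8 in Basal. At Fos the groups were closer, with 14.02, 9.59 and 8.99 per 100000 in Reactivated, 7.84, 9.19, 8.00 and 8.90 in Late, 5.37, 6.97 and 7.11 in Early and 9.65, 6.61, 9.03 and 8.95 in Basal. There Early overlapped with Basal through Basal replicate 2. On the deposited scale, summed over the covered bases, Fosb averaged 1.73 ± 0.315 RPKM in Reactivated, 1.54 ± 0.334 in Late, 0.615 ± 0.0849 in Early and 1.52 ± 0.261 in Basal (SD, n = 3, 4, 3 and 4). Fos averaged 4.03 ± 1.18 RPKM in Reactivated, 2.60 ± 0.216 in Late, 2.12 ± 0.956 in Early and 2.18 ± 0.634 in Basal. Junb averaged 3.60 ± 1.12 RPKM in Reactivated, 2.39 ± 0.246 in Late, 1.60 ± 0.516 in Early and 2.55 ± 0.327 in Basal.

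**Figure D4:**
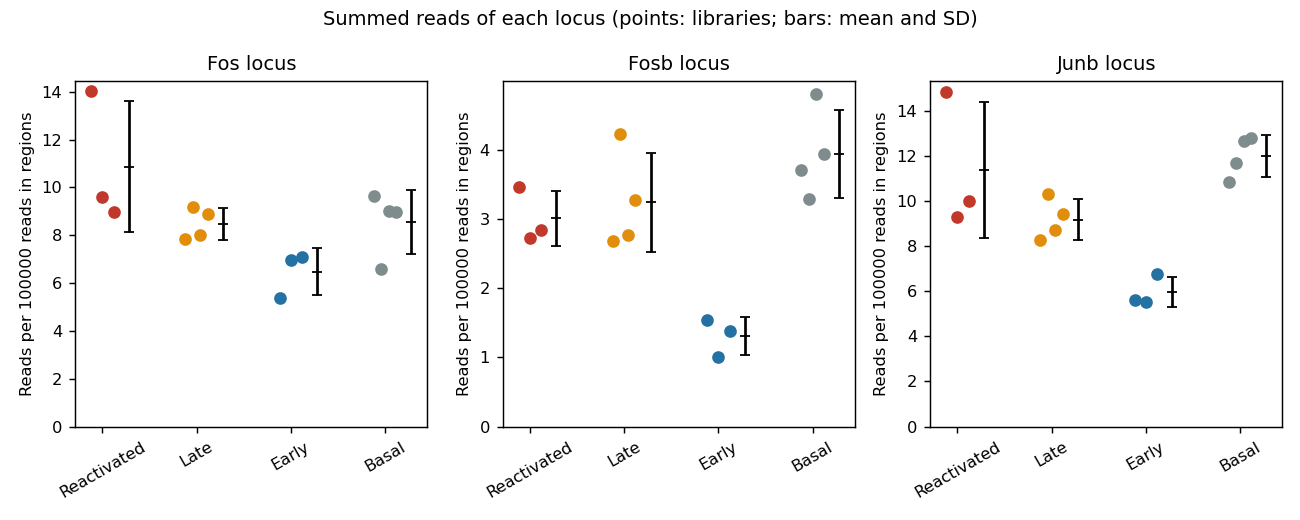
Summed reads of each locus per 100000 reads in regions (vertical axis) for every library of Reactivated, Late, Early and Basal, with the mean and SD of each group in black. The Early libraries, at 1.01 to 1.53 for Fosb and 5.51 to 6.74 for Junb, lie below all other libraries at those loci.

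Other places in the genome with the most similar profile were sought for the highest region of each locus, by the root-mean-square difference of log2 values centred on each region's own mean over the 14 libraries. For Fos region 2 the nearest were chr4:116380349-116381332, chr8:124805099-124806130 and chr1:193398942-193400299, at differences of 0.0806, 0.0856 and 0.103, where the median over all tested regions was 0.523. The nearest of them averaged 6.30 RPKM in Reactivated, 3.59 in Late, 3.19 in Early and 3.04 in Basal. For Junb region 5 they were chr16:4683725-4684481, chr17:24664571-24665409 and chr17:46689757-46690437, at 0.137 to 0.155 with a median of 0.624. The nearest averaged 3.39 RPKM in Reactivated, 2.19 in Late, 1.17 in Early and 2.17 in Basal. As such regions were picked by likeness over the same 14 libraries, a like order of groups was built into the choice. For Fosb region 2 they were chr6:125215307-125215755, chr16:92098464-92098732 and chr4:154937467-154938371, at 0.240 to 0.247 with a median of 0.654.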

How the data were processed

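Sorted hippocampal neuronal nuclei of 14 libraries had been profiled by ATAC-seq. The authors deposited 1 table of RPKM values for one list of regions on mm9. Bowtie2, SAMtools, MACS2, DiffBind and DESeq2 are named per the submitters' processing notes, with no role or order. How regions were called, duplicate removal and shifting of cut positions, which set region borders and read numbers, are not given in the sources used here, nor is whether starts count from 0 or 1. Multiplied by region length (end minus start), every RPKM value was a whole multiple of 1 step per library (tolerance 0.01), which gave reads and totals. The labels tie no library to named mice, so p-values measure the spread between libraries, part of which may be technical.

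Groups were taken from the titles. The lowest 10% of regions by mean RPKM were left out, and log2(RPKM + 0.5), which understates changes of low regions, was fitted with group means over all 14 libraries (limma 3.58.1, R 4.3.3, intensity trend, robust), 2-sided, with Benjamini-Hochberg adjustment over all tested regions in each of 6 comparisons. Errors are limma's moderated SE or the SD over libraries. The fit was tested on simulated reads. A first mark, on the share of changes recovered, was missed, and marks on bias and false calls took its place. Too few changes were recovered for that mark, so a region that was not called is not shown to be unchanged. Python 3.11.15, numpy 2.4.6 and pandas 2.3.3 did the remaining steps.

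The regions, the rule for those named and the alternatives were chosen with earlier results of these data known. Named were, per locus, the highest and the widest region, every called region and, for the comparisons of Early or Late with Basal and of Reactivated with Late, the one with the largest absolute log2 fold change. The other values were added as description. Other AP-1 genes and cell type markers were to be described only with an mm9 annotation, and are not analysed here. Promoters came from RefSeq tables of GRCm38.p6, matched by symbol for all 3 genes.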

Additional observations from a re-analysis of the deposited data

Results flagged for a closer look

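Among 52 sets of 4 libraries (Late and Basal, at each region and for each locus sum), 3 had a single library far from the others, and chance gives about 1 in 20 such sets. Late replicate 1 stood at 1.64 RPKM at Fos region 1, where the other Late libraries held 2.76 to 2.98. Late replicate 2 stood at 3.53 RPKM at Fos region 5, where the others held 2.22 to 2.35. Basal replicate 1 stood at 2.08 RPKM at Fos region 6, where the others held 1.14 to 1.25. Groups of 3 libraries were not examined in this way.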

How the results depend on the processing

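In the fit as reported, the number of the 22 tested regions called was 6 for Early against Basal, 1 for Late against Basal, 0 for Reactivated against Late, 6 for Reactivated against Basal, 2 for Late against Early and 4 for Reactivated against Early. In that order of comparisons, leaving out 1 library at a time gave 3 to 5, 0 to 1, 0 to 0, 1 to 5, 0 to 5 and 0 to 18. Over the table those fits called 0.265% to 1.89% of regions lower for Early against Basal. Shares called higher were 9.23% to 27.4% for Reactivated against Basal, 0.0866% to 5.00% for Late against Early and 0.0023% to 14.5% for Reactivated against Early. For Early against Basal the count became 15 with median-of-ratios scaling, 13 with quantile normalization, 11 with the in-region read share as covariate and 3 in a fit of those 2 groups alone. In that order 6.85%, 5.82%, 2.89% and 0.361% of the table were called lower. For Late against Basal it became 0 with a pseudocount of 0.1 RPKM, with the replicate number as a block or with neither trend nor robust fitting. In those fits 20.8% to 24.4% of the table was called higher and 5.37% to 5.91% lower. The count became 2 with no filter (of 23 regions, 1 higher and 1 lower), with 23.1% of the table called higher and 5.35% lower. Median-of-ratios scaling and quantile normalization gave 3 (0 higher), and a fit of the 2 groups alone also gave 3 (2 higher, 1 lower). Over the table these settings called 14.6%, 16.5% and 32.9% of regions higher and 16.4%, 15.2% and 8.12% lower, in that order. With voom the 1 call was at Fos and higher in Late, with 26.4% of the table called higher. With Late averaged to 1 sample the median log2 fold change of the 22 was 0.10. For Reactivated against Late the count became 1 in a fit of the 2 groups alone, a higher call, with 3.19% of the table called higher. For Reactivated against Basal it became 2 with either scaling (1 higher and 1 lower), 3 with the block and 0 with the covariate. The block called 17.2% of the table higher and the covariate 0. Median-of-ratios scaling and quantile normalization called 8.92% and 8.05% of the table higher and 10.7% and 8.27% lower. For Late against Early it became 1 with the lowest 25% left out, with the block or with neither trend nor robust fitting. It became 5 with quantile normalization and 7 with the covariate. In that order 0.282%, 0.144%, 0.280%, 1.64% and 2.70% of the table were called higher. With Late averaged the median log2 fold change of the 22 against Early was 0.58. For Reactivated against Early the count became 8 with either scaling or the covariate, 9 with voom and 2 in a fit of the 2 groups alone. Over the table median-of-ratios scaling, quantile normalization and the covariate called 1.88%, 2.02% and 1.65% of regions higher. Voom called 2.43% higher and the fit of the 2 groups 0.266%. All these counts take higher and lower calls together. Counts are not given for the fit with Late averaged, which leaves 1 sample in that group. The remaining settings moved the counts by at most 1.5 times. The cause of these shifts was not tested.

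The 19 called differences kept their direction under the alternatives run, and 1 of them (Fosb region 8, Early against Basal) kept its call under all of them. Of the 6 named differences that were not called, 1 turned: Fos region 7, Early against Basal, whose log2 fold change ran from -0.030 (without Early replicate 2) to 0.82 (without Early replicate 1) when 1 library was left out. Replicate numbers do not pair the libraries: deviations from group means correlated at -0.26 to 0.069 over the 19 pairs with the same number, and the block fit is given for its counts only. Low read numbers, 4 to 59 per library at the called Fosb regions 7 and 8, limit what could be seen there.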
